A study of Homo sapiens with 13 samples.

Results

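OICR623 was set against Deferasirox in SW480 cells, an established human colon cancer cell line, over all genes of the array. The arrays were chosen by their titles, and 5 of the 13 arrays of the series belong to this comparison. OICR623 had been given at a labelled dose of 10 mM (n = 2) and Deferasirox at a labelled dose of 50 mM (n = 3), both for 6 h. The remaining arrays are of cells that received 0.1 percent DMSO, the solvent (n = 4), or DFO at a labelled 100 mM (n = 4), again over 6 h, and they served as the background and as a further chelator. Deferasirox and DFO (deferoxamine) are clinical iron chelators. OICR623 is known here by its code name alone, so its structure cannot be set against theirs. All groups share 1 cell line and the incubation time, and the labels describe the arrays of a group as biological replicates. The doses are not matched, so that compound and dose cannot be told apart in any difference given here. The labelled concentrations are high for cells in culture, and nothing else in the labels gives another unit.

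Cells need iron for several enzymes that bear on gene expression. The prolyl hydroxylases that mark hypoxia-inducible factor (HIF) for destruction use iron and oxoglutarate, so iron chelation is known to stabilise HIF and to raise its target genes. Ribonucleotide reductase, which makes the building blocks of DNA, holds iron as well, and chelators are known to halt DNA synthesis. The messages of the replication-dependent histones are made in S phase and are degraded when DNA synthesis stops.

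The deposited values are log2 signals of 32321 transcript clusters, and 18404 genes were measured by a cluster with a single symbol. The array medians fell into 3 levels. Both OICR623 arrays, Deferasirox 1, Deferasirox 2 and 4 other arrays (DMSO 2 and 3, DFO 2 and 3) lay in the middle level, with medians from 6.64 to 6.69. Deferasirox 3 lay in the low level with DMSO 4 and DFO 4, with medians from 6.52 to 6.55, and DMSO 1 and DFO 1 made up the high level, with medians of 7.19 and 7.17. DMSO 1 and DFO 1 also shared 8530 exactly equal values of 32321, or 26.4%, whereas other pairs of a level shared 5 to 107 and pairs of different levels shared 0. The level was therefore kept as a block in the fit, and counts without DMSO 1 and DFO 1 are given below. The epithelial keratins KRT8 and KRT18 had log2 signals of 12.55 to 13.03 in the 5 arrays, whereas CDH1 (E-cadherin) and CDH17, further markers of intestinal epithelium, lay between 3.99 and 5.47. Of the 14 epithelial, 7 fibroblast, 6 endothelial and 6 measured leukocyte markers, 0 differed between OICR623 and Deferasirox by the test used below. That test passed only 0.0869% of all genes, so 0 markers do not show that the cells were alike. The largest differences were those of the epithelial markers LGR5, at 0.53 (limma adjusted p = 0.0631), and CDX2, at 0.33 (0.413). The summed signal of the leukocyte markers was 9.65 to 9.83 under OICR623 and 9.12 to 9.91 under Deferasirox, and the summed signals of the other marker lists overlapped between the compounds as well.

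Histone genes were higher under OICR623 than under Deferasirox, and a small group of other genes, the transcription factor gene JUN and the clock gene PER2 among them, was lower. In a limma fit over all 13 arrays with the level as a block, 16 of 18404 genes (0.0869%) had a Benjamini-Hochberg adjusted p under 0.05, and such genes are named as called below. They comprised 11 that were higher under OICR623 (0.0598%), 8 of them histone genes, and 5 that were lower (0.0272%). Over the same genes, 738 were higher (4.01%) and 833 lower (4.53%) at an unadjusted p under 0.05. Counts within the gene lists below are to be read against these shares. With so few calls over all genes, 0 calls in a list is no sign that its genes did not differ. All 16 kept their sign in each of the alternative fits that gave them a value. Those fits reuse the arrays that chose the genes, so a change of sign was unlikely from the start. The number of calls rested on single arrays: limma called 0 genes without OICR623 1 and 0 without OICR623 2, with 1704 and 1795 genes at an unadjusted p under 0.05, and 1 gene without Deferasirox 1. It called 24 (13 higher, 11 lower) without DMSO 1 or without DFO 1, either of which takes the high level out, 26 (17 and 9) without DMSO 4, 20 (12 and 8) without DFO 3, 21 (18 and 3) without Deferasirox 2 and 17 (14 and 3) without Deferasirox 3. Without the level block 0 genes were called, and 47 had an unadjusted p under 0.05.

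**Figure D1:**
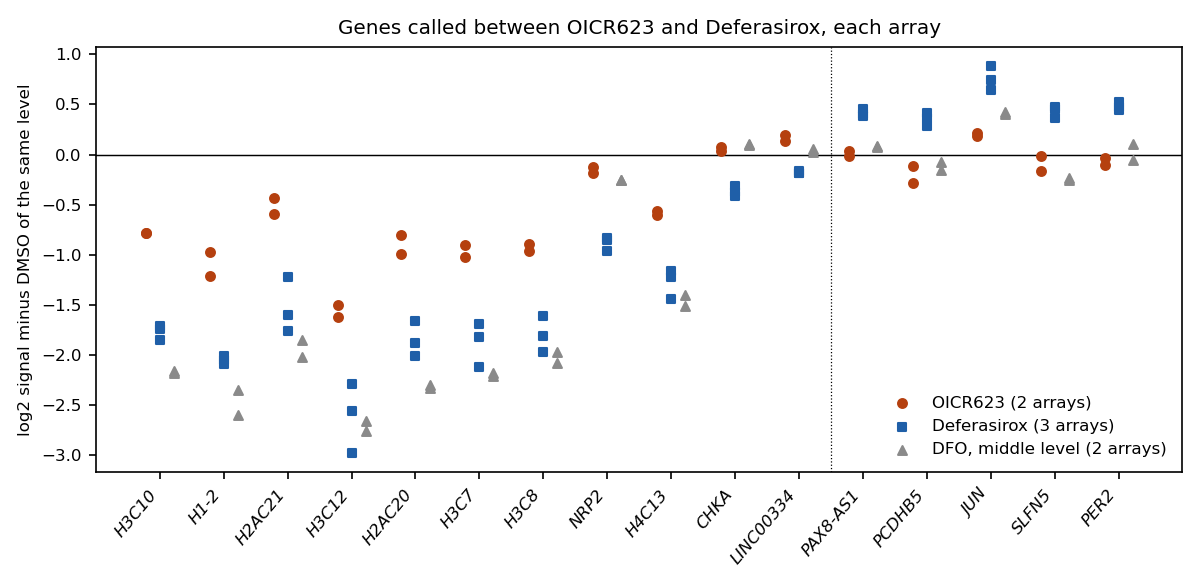
Log2 signal of each array minus the mean of the DMSO arrays of its level (vertical axis) for the 16 called genes, ordered by their difference; circles are the 2 OICR623 arrays, squares the 3 Deferasirox arrays and triangles the 2 DFO arrays of the middle level. The 8 histone genes lay below DMSO under all 3 compounds and least so under OICR623, whereas for PER2 OICR623 lay at -0.04 and -0.10 and Deferasirox at 0.44 to 0.53.

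H3C10, which encodes histone H3, was the called gene with the largest difference. Its log2 signals were 7.31 and 7.30 under OICR623, 6.24, 6.35 and 6.35 under Deferasirox, 8.06 and 8.12 in DMSO 2 and 3, and 5.93 and 5.90 in DFO 2 and 3. Both OICR623 arrays lay above all Deferasirox arrays and below DMSO. Over all genes, both OICR623 arrays lay above all Deferasirox arrays for 2541 (13.81%) and below them for 1008 (5.477%). These raw values are not adjusted for Deferasirox 3 lying in the low level. The fitted difference of OICR623 minus Deferasirox was 1.05 (SE 0.11, 95% interval 0.81 to 1.29, limma adjusted p = 0.00904), a 2.07-fold higher signal. Taken against the DMSO arrays of the same level, H3C10 was at -0.78 on both OICR623 arrays and at -1.85, -1.74 and -1.71 under Deferasirox. In these bulk samples, fewer cells in S phase and less histone message per cell cannot be told apart.

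H1-2, a linker histone that binds the DNA between nucleosomes, showed a difference of nearly the same size. Its log2 signals were 8.29 and 8.53 under OICR623, 7.41, 7.44 and 6.68 under Deferasirox, 9.49 and 9.51 in DMSO 2 and 3, and 7.15 and 6.89 in DFO 2 and 3. OICR623 overlapped no other group and lay between DMSO and Deferasirox, while the DFO values lay within the Deferasirox range. The fitted difference was 1.02 (SE 0.13, limma adjusted p = 0.0153). H2AC20, which encodes histone H2A, had log2 signals of 9.83 and 10.02 under OICR623 and 8.94, 9.15 and 8.75 under Deferasirox, against 10.78 and 10.86 in DMSO 2 and 3. Its difference was 0.93 (SE 0.10, limma adjusted p = 0.00904), with both OICR623 arrays above all Deferasirox arrays again. The other called histone genes were H2AC21 (0.98), H3C12 (0.95), H3C7 (0.88), H3C8 (0.84) and H4C13, a histone H4 gene (0.67), with limma adjusted p-values from 0.00904 to 0.045.

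The promoters of H3C10, H2AC20 and H1-2 are shown as those of 3 called histone genes, each from a family of its own. The sequences are the 250 bases before the gene start in RefSeq (build GRCh38.p14), read 5′ to 3′ on the gene's strand, with H3C10 at chr6:27809801-27810050 on the plus strand, H2AC20 at chr1:149886668-149886917 on the plus strand and H1-2 at chr6:26056471-26056720 on the minus strand. Capitals mark the CCAAT box (CCAAT, either strand) in all 3, the letters TATANA on either strand in H3C10 and H1-2 (H2AC20 holds them too, unmarked), the octamer ATGCAAAT in H2AC20 and the H1 box AAACACAA, on either strand, in H1-2.
H3C10: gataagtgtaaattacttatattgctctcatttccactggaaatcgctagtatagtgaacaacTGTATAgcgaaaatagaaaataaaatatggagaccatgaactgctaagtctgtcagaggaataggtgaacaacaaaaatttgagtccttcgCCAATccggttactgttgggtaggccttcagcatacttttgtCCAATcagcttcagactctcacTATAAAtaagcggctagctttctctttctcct
H2AC20: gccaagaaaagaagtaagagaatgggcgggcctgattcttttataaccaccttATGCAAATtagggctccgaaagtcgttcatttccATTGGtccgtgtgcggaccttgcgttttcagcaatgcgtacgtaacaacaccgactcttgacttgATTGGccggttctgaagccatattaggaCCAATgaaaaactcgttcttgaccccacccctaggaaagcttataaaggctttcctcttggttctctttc
H1-2: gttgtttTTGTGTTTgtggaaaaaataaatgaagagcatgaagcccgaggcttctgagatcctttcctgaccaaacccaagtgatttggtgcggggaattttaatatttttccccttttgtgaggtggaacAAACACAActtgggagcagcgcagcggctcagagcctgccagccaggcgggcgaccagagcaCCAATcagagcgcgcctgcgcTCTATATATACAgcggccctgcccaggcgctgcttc
CCAAT was found in 35 of the 39 core histone promoters of the table and in 7 of the 7 called histone genes that have an entry, against 32% of all 35116 promoters of this length. TATANA was found in 34 of 39 and 7 of 7, against 17.7% of all. The octamer stood in 22 of 39 and 2 of 7, against 1.63% of all, and AAACACAA in 0 of 39 core histone promoters but in that of H1-2, against 1.28% of all. CCAAT and TATANA stood in promoters of called and of uncalled histone genes. A match is a description of the window, not of a bound factor. The letters ACGTG, the core of the element that HIF binds, were in 5 of the 39 core histone promoters and 0 of the 7, against 18.5% of all. GCGTG, the core of the dioxin response element, was in 2 and 0 (32.2% of all), TGACNNNGC in 3 and 0 (10.9%), TGCNCNC in 9 and 4 (49.1%), CACGTT in 1 and 0 (4.55%) and TGACATCA in 0 and 0 (2.37%).

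Replication-dependent core histones as a list differed by a median of 0.60 over 44 measured genes, beside 0.00 over all genes. Of the 44, 7 were called, all higher under OICR623, and 37 did not pass the test, while 39 were higher at an unadjusted p under 0.05 and 0 lower. On the 4 arrays of the middle level, 39 had both OICR623 values above both Deferasirox values and 1 had them below, beside 17.1% and 17% of all genes. The median difference was 0.90 for the 8 H3 genes, 0.62 for the 12 H2A genes, 0.50 for the 9 H4 genes and 0.44 for the 15 H2B genes. The members of a family spread, from -0.43 to 1.00 among H2A genes and from 0.61 to 1.05 among H3 genes. H2BC1, a testis histone gene, was at -0.03. Taken per array against DMSO of the same level, the list's median was -0.69 and -0.62 under OICR623, -1.33, -1.15 and -1.49 under Deferasirox, and from -1.57 to -1.43 over the 4 DFO arrays. The OICR623 arrays thus lay above every array of both chelators and below DMSO. Against DMSO, 24 of the 44 were called lower under OICR623 and 40 under Deferasirox, beside 73 (0.397%) and 553 (3%) of all genes. These comparisons called 135 genes (0.734%) and 1074 genes (5.84%) in both directions and share the DMSO arrays.

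H1-5, another linker histone, had the largest difference of all genes but was not called. Its log2 signals were 9.91 and 10.51 under OICR623, 8.48, 8.96 and 7.29 under Deferasirox, 11.37 and 11.50 in DMSO 2 and 3, and 8.23 and 8.28 in DFO 2 and 3. OICR623 overlapped no other group, but its 2 arrays lay further apart than for the called histones shown, and the DFO values lay within the wide Deferasirox range. The difference was 1.70 (SE 0.26, 95% interval 1.13 to 2.28, limma adjusted p = 0.0501). Of the 7 linker histones measured, 1 was called, the median difference was 0.15 (0.06 with median-centred arrays and no level block, 0.66 once the dimmest 25% of genes were left out), and 3 were higher and 1 lower at an unadjusted p under 0.05. H1-4 was at 0.66 (SE 0.11, limma adjusted p = 0.0631), whereas H1-1, H1-10 and H1-3, like H1-4 named after their values were seen, were at 0.00, 0.07 and 0.15. H1-6, a testis linker histone also named afterwards, was at -0.29 (SE 0.13, limma adjusted p = 0.544) without overlap on the middle level. Copies of histone genes are nearly identical in sequence, so which copy a probe set reads is uncertain, and clusters that list several symbols were left out.

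**Figure D2:**
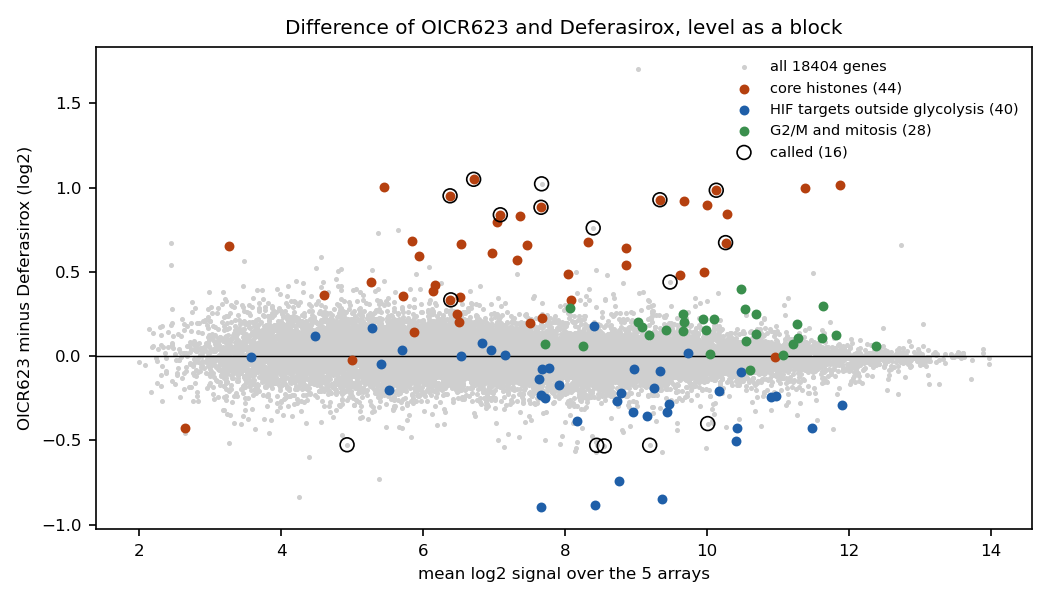
Difference of OICR623 minus Deferasirox (log2, vertical axis) against the mean log2 signal of the 5 arrays (horizontal axis) for 18404 genes; colours mark 3 gene lists and rings the 16 called genes. Core histones lie above 0 in 41 of 44 cases, HIF targets outside glycolysis below 0 in 31 of 40 and G2/M genes above 0 in 27 of 28. Of all 18404 genes, 9283 lie above 0 and 9121 below.

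Histone genes made up the largest differences among the genes that were higher under OICR623. Over 18404 genes, 64 differed by more than 0.5 on the log2 scale: 42 were higher under OICR623, 28 of them histones, and 22 were lower, 0 of them histones. All 5 genes that differed by more than 1 were histone genes and were higher under OICR623. The 95% interval lay within 1 on either side of 0 for 18360 genes (99.76%) and within 0.5 for 17702 (96.19%).

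Outside the histone families 8 genes were called, 3 higher and 5 lower under OICR623. NRP2 (neuropilin 2, a co-receptor for semaphorins and VEGF) had log2 signals of 8.93 and 8.87 under OICR623, 8.10, 8.23 and 7.85 under Deferasirox, 8.94 and 9.18 in DMSO 2 and 3, and 8.81 and 8.81 in DFO 2 and 3. Deferasirox 1, 2 and 3 lay below all of the others listed. The difference was 0.76 (SE 0.09, limma adjusted p = 0.00904). CHKA (choline kinase alpha, which starts the synthesis of phosphatidylcholine) had log2 signals of 9.74 and 9.69 under OICR623 and 9.28, 9.25 and 9.44 under Deferasirox, against 9.71 and 9.61 in DMSO 2 and 3. Its difference was 0.44 (SE 0.05, limma adjusted p = 0.00946), with OICR623 close to the DMSO values. LINC00334, a non-coding RNA, was higher under OICR623 by 0.33 (SE 0.05, limma adjusted p = 0.045), and against DMSO it stood at 0.16 under OICR623 and -0.17 under Deferasirox.

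JUN, an immediate early gene whose product is a subunit of the AP-1 transcription factor, was lower under OICR623. Its log2 signals were 8.87 and 8.84 under OICR623, 9.29, 9.40 and 9.57 under Deferasirox, 8.65 and 8.66 in DMSO 2 and 3, and 9.08 and 9.06 in DFO 2 and 3. The order was the same in every array listed: DMSO lowest, then OICR623, DFO and Deferasirox. OICR623 minus Deferasirox was -0.53 (SE 0.06, limma adjusted p = 0.00904). PER2, a repressor in the circadian clock, had log2 signals of 8.31 and 8.24 under OICR623, 8.79, 8.82 and 8.60 under Deferasirox, and 8.34 and 8.35 in DMSO 2 and 3. OICR623 lay just under DMSO 2 and 3 and below all Deferasirox arrays, and the difference was -0.53 (SE 0.06, limma adjusted p = 0.00904). SLFN5, a gene of the interferon-inducible Schlafen family, differed by -0.53 (SE 0.08, limma adjusted p = 0.044), PCDHB5, a protocadherin, by -0.53 (SE 0.07, adjusted p = 0.018), and the antisense RNA PAX8-AS1 by -0.40 (SE 0.05, adjusted p = 0.00954). PCDHB5 is dim, with log2 signals of 4.59 to 5.24 in the 5 arrays.

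The promoters of JUN and PER2 are shown as those of the lower genes with the smallest p. They lie at chr1:58784048-58784297 and chr2:238288611-238288860 (GRCh38.p14, both minus strand, 250 bases before the gene start, RefSeq). Capitals mark CCAAT in both, the element TGACATCA in JUN, and CACGTT, a variant of the E-box that clock factors bind, together with ACGTG in PER2.
JUN: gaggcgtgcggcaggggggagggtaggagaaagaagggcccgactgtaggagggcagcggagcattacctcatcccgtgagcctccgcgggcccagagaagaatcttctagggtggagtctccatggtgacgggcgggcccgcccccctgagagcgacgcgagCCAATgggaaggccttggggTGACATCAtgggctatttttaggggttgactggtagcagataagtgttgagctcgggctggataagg
PER2: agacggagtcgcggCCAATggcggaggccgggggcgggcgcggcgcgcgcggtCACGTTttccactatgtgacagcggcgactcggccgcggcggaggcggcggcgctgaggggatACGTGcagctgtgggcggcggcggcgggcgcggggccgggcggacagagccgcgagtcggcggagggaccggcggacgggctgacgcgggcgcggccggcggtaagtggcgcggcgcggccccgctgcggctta
The start of CACGTT is also ACGTG read on the other strand, so the 2 motifs overlap at that place in PER2.

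Against DMSO, the 8 called genes outside the histone families ranged from -0.18 to 0.22 under OICR623, with limma adjusted p-values of 0.138 or above. These p-values, from fewer arrays than for Deferasirox, do not show that the genes were unchanged. Furthest from 0 under OICR623 were JUN at 0.22 (SE 0.06), PCDHB5 at -0.18 (SE 0.07) and LINC00334 at 0.16 (SE 0.05). Under Deferasirox the 8 genes ranged from -0.88 to 0.75, with adjusted p-values of 0.0377 or below. These comparisons share the DMSO arrays with each other, and the Deferasirox arrays with the one that chose the genes. DFO gives a further reference for the same Deferasirox arrays, in a comparison added after the data were seen that called 8 of 18404 genes (0.0435%). Deferasirox minus DFO was -0.73 for NRP2 (limma adjusted p = 0.00644), -0.48 for CHKA (0.00589), 0.42 for PER2 (0.0101), 0.63 for SLFN5 (0.00644), 0.43 for PCDHB5 (0.0352), 0.35 for PAX8-AS1 (0.0101), 0.33 for JUN (0.0563) and -0.19 for LINC00334 (0.17). The called histone genes differed between Deferasirox and DFO by 0.14 to 0.42, with adjusted p-values from 0.14 to 0.555. For them OICR623 differed from DFO, with limma adjusted p-values from 0.000763 to 0.00637, in a comparison that called 31 genes (0.168%). That comparison shares the OICR623 arrays with the one that chose the genes, so it is no independent support.

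Some hypoxia targets rose over DMSO under each compound, and none passed the test between OICR623 and Deferasirox. Of the 40 measured HIF targets outside glycolysis, 12 were called higher than DMSO and 1 lower under OICR623, beside 62 higher (0.337%) and 73 lower (0.397%) of all 18404 genes. Under Deferasirox 25 of the 40 were called higher and 1 lower, beside 521 (2.83%) and 553 (3%) of all genes. Between the compounds 0 of 40 were called, 21 were lower under OICR623 and 0 higher at an unadjusted p under 0.05, and the median was -0.20. On the middle level 24 of the 40 lay lower without overlap and 2 higher, beside 17% and 17.1% of all genes. Per array against DMSO of the same level, the list's median was 0.33 and 0.21 under OICR623 and 0.31, 0.40 and 0.50 under Deferasirox, so that the arrays of the compounds overlapped.

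DDIT4 (REDD1, an inhibitor of mTOR complex signalling) had log2 signals of 8.09 and 7.68 under OICR623, 8.73, 8.74 and 8.90 under Deferasirox, 5.69 and 5.82 in DMSO 2 and 3, and 8.84 and 8.84 in DFO 2 and 3. OICR623 lay far above DMSO and below every chelator array listed. The difference from Deferasirox was -0.89 (SE 0.14, 95% interval -1.20 to -0.57, limma adjusted p = 0.0595). VEGFA, the angiogenic growth factor, had log2 signals of 8.38 and 8.31 under OICR623, 8.98, 9.08 and 9.06 under Deferasirox, and 7.37 and 7.38 in DMSO 2 and 3. Its difference was -0.74 (SE 0.15, limma adjusted p = 0.113), again without overlap. ANGPTL4, a secreted inhibitor of lipoprotein lipase named after its values were seen, had the lowest difference of all genes, at -0.90 (SE 0.16, limma adjusted p = 0.0795). The promoter of DDIT4 (chr10:72273674-72273923, plus strand, same build and length) is shown for the HIF core ACGTG, in capitals, which this window holds in 1 place.
DDIT4: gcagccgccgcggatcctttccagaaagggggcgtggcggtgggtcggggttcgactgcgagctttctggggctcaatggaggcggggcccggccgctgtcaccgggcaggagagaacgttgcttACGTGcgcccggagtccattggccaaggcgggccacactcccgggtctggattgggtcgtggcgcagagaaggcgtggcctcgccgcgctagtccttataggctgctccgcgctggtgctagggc

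The following hypoxia targets had smaller differences, as had ARRDC3, which is not on the list of HIF targets. EGLN3, a HIF prolyl hydroxylase that HIF itself induces, was at 1.71 against DMSO under OICR623 and 1.94 under Deferasirox, and the difference was -0.23 (95% interval -0.52 to 0.05). ADM (adrenomedullin) was at 1.78 and 2.20, and the difference was -0.43 (-0.74 to -0.12, limma adjusted p = 0.401). NDRG1, a stress-response gene long used as a marker of iron depletion, was at 1.21 and 1.50, with a difference of -0.29 (-0.50 to -0.08, adjusted p = 0.407). ARRDC3, an alpha-arrestin, was at 2.20 and 2.57, with a difference of -0.38 (-0.53 to -0.22, adjusted p = 0.0941). All of these rose over DMSO under both compounds. ANKRD37 was at 0.55 and 0.93 (difference -0.38, adjusted p = 0.0983), and the collagen hydroxylase gene P4HA1 at 0.58 and 0.91 (difference -0.33, adjusted p = 0.219).

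**Figure D3:**
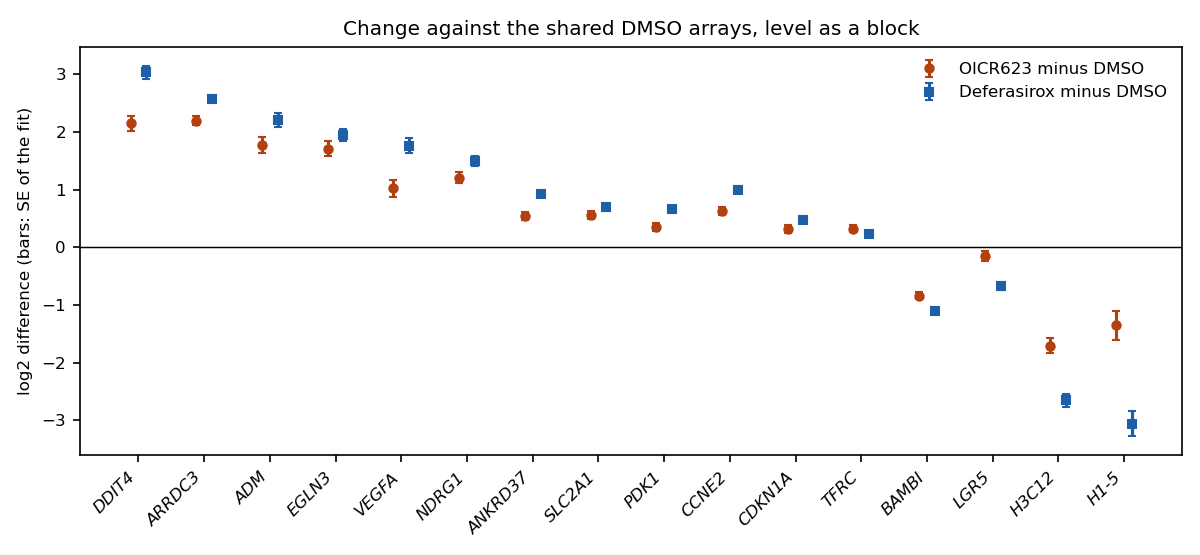
Fitted log2 difference from the shared DMSO arrays (vertical axis) under OICR623 (circles) and Deferasirox (squares) for 16 genes; bars are the standard error of the fit. DDIT4 stands at 2.14 and 3.03, BAMBI at -0.84 and -1.10, and TFRC at 0.32 and 0.23, the nearest pair of the plot being TFRC's.

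Glycolytic genes gave a smaller median of -0.10 (-0.14 to -0.06 over the alternatives) over 23 measured genes, with 0 called, 8 lower and 0 higher at an unadjusted p under 0.05. PFKFB3, which makes the activator of phosphofructokinase, differed by -0.57 (SE 0.12, limma adjusted p = 0.13), at 0.46 against DMSO under OICR623 and 1.03 under Deferasirox. PDK1, a kinase that inhibits pyruvate dehydrogenase, differed by -0.31 (SE 0.07, adjusted p = 0.159). The glucose transporter gene SLC2A1 differed by -0.13 (95% interval -0.30 to 0.03). Against DMSO, 4 of the 23 were called higher under OICR623 and 11 under Deferasirox, beside 0.337% and 2.83% of all genes.

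Genes of the cell cycle had medians on opposite sides of 0 by phase, and none was called. The 28 measured G2/M and mitosis genes had a median difference of 0.15, and 27 lay above 0, beside 9283 of all 18404 genes. Of the 28, 0 were called, beside 0.0869% of all genes. At an unadjusted p under 0.05, 14 were higher and 0 lower, beside 4.01% and 4.53% of all genes. AURKA (Aurora kinase A) had log2 signals of 10.75 and 10.81 under OICR623, 10.42, 10.42 and 10.01 under Deferasirox, and 10.97 and 11.05 in DMSO 2 and 3. OICR623 lay between Deferasirox and DMSO, as for the histones, and the difference was 0.40 (SE 0.09, limma adjusted p = 0.176). Among 30 genes of the G1/S transition and DNA replication the median was -0.04 (-0.08 to -0.02 over the alternatives), with 0 called, 1 higher and 5 lower at an unadjusted p under 0.05. The cyclin E genes, which drive entry into S phase, were the furthest from 0: CCNE1 differed by -0.48 (SE 0.08, limma adjusted p = 0.0644) and CCNE2 by -0.37 (SE 0.07, adjusted p = 0.0746). CCNE2 was called higher than DMSO under both, at 0.63 and 1.00. RRM2, the iron-holding subunit of ribonucleotide reductase, differed by -0.06 (95% interval -0.20 to 0.07), and the CDK inhibitor gene CDKN1A by -0.17 (-0.33 to -0.01, adjusted p = 0.542).

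Iron-handling genes gave no call between the compounds, where few genes of any kind did. The 28 measured genes of iron uptake, storage and export had a median difference of -0.01 (-0.02 to 0.06 over the alternatives). Of them 0 were called, beside 0.0869% of all genes. At an unadjusted p under 0.05, 2 were higher and 3 lower, beside 4.01% and 4.53% of all genes. TFRC, the transferrin receptor whose message is stabilised when iron is scarce, had log2 signals of 11.73 and 11.64 under OICR623, 11.61, 11.61 and 11.74 under Deferasirox, and 11.36 and 11.27 in DMSO 2 and 3. The compounds overlapped, both lay above DMSO 2 and 3, and the difference was 0.08 (95% interval -0.05 to 0.22, limma adjusted p = 0.774). Over all 4 DMSO arrays, whose levels differ, the mean was 11.66. Taken against DMSO of the same level, TFRC was at 0.41 and 0.32 under OICR623 and at 0.29, 0.30 and 0.14 under Deferasirox. Against DMSO, TFRC was called higher under OICR623 (0.32, limma adjusted p = 0.0448) and under Deferasirox (0.23, 0.0234). The importer gene SLC11A2 differed by 0.12 (-0.05 to 0.29), and the ferritin light chain gene FTL by -0.07 (-0.28 to 0.13). FBXL5, the iron-sensing ubiquitin ligase subunit that targets iron regulatory proteins, was named after its values were seen: it was called lower than DMSO under both, at -0.52 and -0.50, and the compounds differed by -0.02 (-0.17 to 0.13).

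The immediate early and unfolded protein response lists had medians below 0. The 32 immediate early and MAPK feedback genes had a median of -0.13, with 1 called (JUN), 13 lower and 0 higher at an unadjusted p under 0.05. Against DMSO 4 of them were called higher under OICR623 and 13 under Deferasirox, beside 0.337% and 2.83% of all genes. The 23 genes of the unfolded protein response had a median of -0.11 (-0.03 without the level block), with 0 called and 6 lower and 0 higher at an unadjusted p under 0.05. HERPUD1, a part of the machinery that clears misfolded proteins from the endoplasmic reticulum, had log2 signals of 10.55 and 10.63 under OICR623, 11.03, 11.03 and 10.58 under Deferasirox, and 10.15 and 10.23 in DMSO 2 and 3. Deferasirox 3, of the low level, overlapped OICR623, and the difference was -0.41 (SE 0.07, limma adjusted p = 0.0797). ATF3 and DDIT3, transcription factor genes of the integrated stress response, differed by 0.05 (95% interval -0.21 to 0.32) and -0.12 (-0.34 to 0.10).

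**Figure D4:**
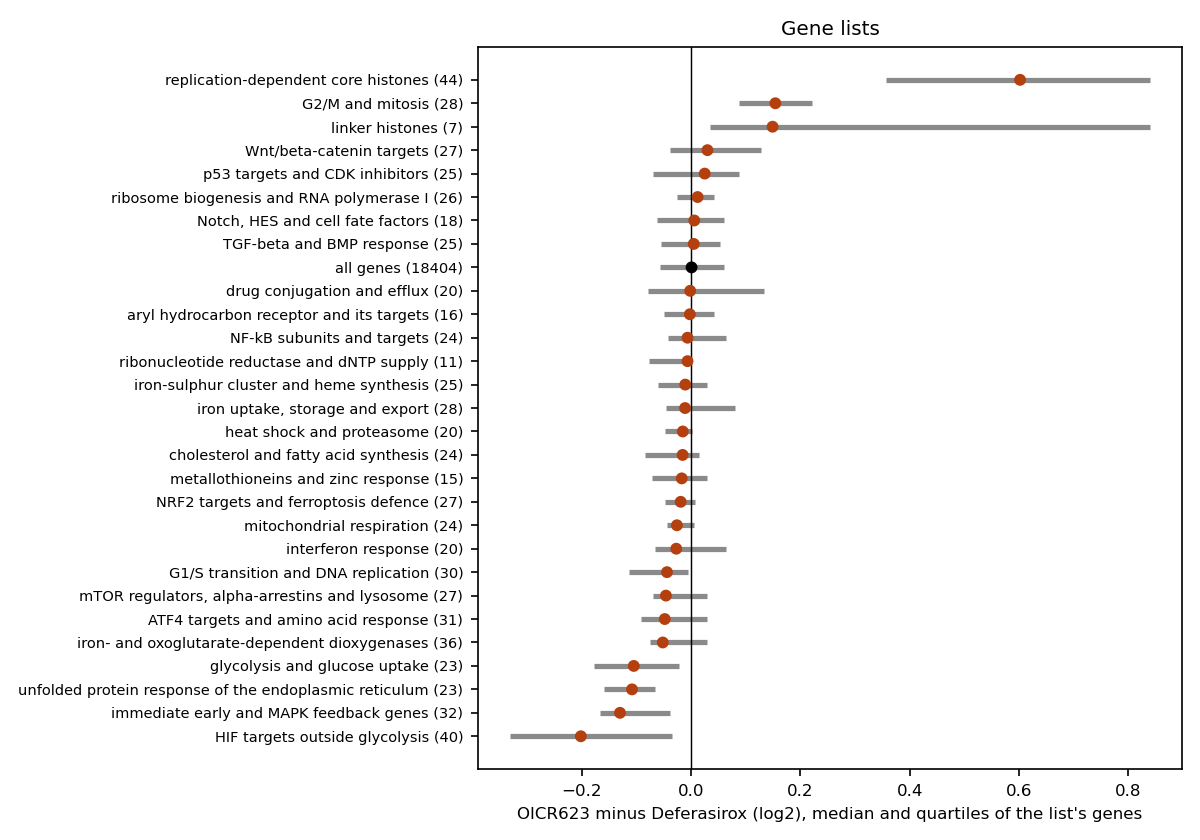
Median (point) and quartiles (bar) of the difference OICR623 minus Deferasirox (log2, horizontal axis) for each of the 28 gene lists, with the number of measured genes, and for all 18404 genes in black. Core histones stand at 0.60 and HIF targets outside glycolysis at -0.20, and most lists overlap the median of all genes at 0.00.

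Lists of other metal and xenobiotic responses had medians near 0, with single members away from it. The aryl hydrocarbon receptor list had a median of 0.00 (-0.03 to 0.06 over the alternatives) over 16 genes, with 1 lower at an unadjusted p under 0.05. That gene was STC2, which encodes the secreted glycoprotein stanniocalcin 2, at -0.33 (95% interval -0.52 to -0.14, limma adjusted p = 0.271). STC2 is also a member of the lists of HIF targets outside glycolysis and of ATF4 targets. Against DMSO it stood at 0.37 under OICR623 and 0.70 under Deferasirox. CYP1A1, a monooxygenase induced by the receptor, differed by -0.06 (95% interval -0.26 to 0.14). The NRF2 list had a median of -0.02 (-0.04 to 0.02) over 27 genes, with 1 lower at an unadjusted p under 0.05, the efflux transporter gene ABCC3, at -0.24 (-0.38 to -0.10, adjusted p = 0.285). NQO1 was at 0.01 (-0.09 to 0.10) and HMOX1, heme oxygenase, was at 0.06 (-0.09 to 0.22). The metallothionein list had a median of -0.02 (-0.05 to 0.02) over 15 genes, with 2 lower at an unadjusted p under 0.05, among them MT1X at -0.22 (-0.40 to -0.04, adjusted p = 0.484), while MT2A was at -0.05 (-0.14 to 0.05). None of these lists had a called member. In the Wnt target list of 27 genes the median was 0.03 (0.13 without the level block, 0.02 to 0.13 over the alternatives), with 0 called, 6 higher and 3 lower at an unadjusted p under 0.05. LGR5, a Wnt target and marker of intestinal stem cells, had log2 signals of 6.47 and 6.42 under OICR623, 5.92, 6.00 and 5.63 under Deferasirox, and 6.72 and 6.45 in DMSO 2 and 3. OICR623 lay above all Deferasirox arrays, by 0.53 (SE 0.09, limma adjusted p = 0.0631), while AXIN2, a feedback inhibitor of the same pathway, differed by 0.00 (95% interval -0.16 to 0.17). BAMBI, a decoy receptor of BMP signalling and Wnt target, was called lower than DMSO under both, at -0.84 and -1.10, and differed by 0.26 (SE 0.07, adjusted p = 0.271). The remaining lists had medians from -0.05 to 0.02, or -0.11 to 0.09 over the alternatives, and 0 called members.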

How the data were processed

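RNA of SW480 cells was hybridised to Affymetrix whole-transcript arrays. By its range, the deposited table holds log2 signals for each transcript cluster. The submitters' processing notes name GCRMA and limma without version or role, and the genome build is not given in the sources used here. Of 32321 clusters, 19158 had 1 gene symbol in the platform table, 1388 several and 11775 none; 19128 matched the RefSeq gene table by Entrez identifier. For 637 genes with several clusters the one of highest mean was kept, which left 18404 genes, with no filter on dim ones. Array medians over 0.05 apart were taken as separate levels; their origin is not stated.

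The tests used limma 3.58.1 (R 4.3.3, statmod 1.5.0) on all 13 arrays, with group and level as terms, empirical Bayes moderation, 7 residual degrees of freedom and Benjamini-Hochberg adjustment, and the script was tested on simulated data. With 2 and 3 arrays the number of arrays limits the precision. P-values rest on the spread within groups and levels over all 13 arrays, those of DMSO and DFO included, and not on the compared arrays alone. Same-numbered arrays were not taken as pairs. Their deviations correlated at r = 0.03 and -0.07, but 2 OICR623 arrays cannot settle whether arrays were paired.

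Named genes were up to 15 called higher and 15 lower whose middle-level arrays did not overlap, up to 4 called members of each of 28 lists or else its member of smallest p, and 35 genes chosen by name. The genes, lists and level block were chosen with earlier results of these data known. Promoters came from RefSeq (13 of the 16 called genes had an entry). The motifs searched for histone genes, JUN and PER2 were added after the data were seen.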

Additional observations from a re-analysis of the deposited data

Results flagged for a closer look

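Among the 4 DMSO arrays, which served as the background, 21 of the 67 named genes had 1 array far from the others (gap over range above 0.829). Chance flags about 1 in 20 such groups where the 4 arrays share a level. The DMSO arrays do not, so the count cannot be set against that share. In 20 of the 21 the array was DMSO 1, the only DMSO array of the high level, and it was the highest. Its log2 signals for the called genes among them were H3C10 9.20, H2AC20 11.91, H3C8 9.18, CHKA 10.95, PAX8-AS1 10.48, JUN 9.43 and SLFN5 8.99. For the others it stood at AURKA 12.06, TIPARP 11.12, NQO1 12.28, DCK 9.93, MYC 11.80, SREBF1 9.15, EGLN3 9.88, ABCC3 8.97, ICAM1 10.67, PDK1 10.36, STC2 9.52, CCNE2 10.64 and ARRDC3 9.64 on the same scale. For ICAM1 the other DMSO arrays lay between 7.91 and 8.07, the widest gap of these genes. The remaining gene was CYP1A1, for which DMSO 4, of the low level, was at 5.68 and the others between 6.07 and 6.10.

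Of the clusters without a single symbol, 3 were called when every cluster of the table was tested, each higher under OICR623. Transcript cluster 8124416, listed for H3C4 and H2AC7, differed by 0.90 (SE 0.11), and transcript cluster 7919619, listed for H2AC18 to H2AC21, differed by 0.73 (SE 0.08). Transcript cluster 8138708, which has no symbol in the platform table, differed by 0.65 (SE 0.08), with log2 signals of 9.09 and 9.05 under OICR623 and of 8.50, 8.43 and 7.90 under Deferasirox. The limma adjusted p was 0.0378 for all 3.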

How the results depend on the processing

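Calls between OICR623 and Deferasirox (16 genes, 11 higher and 5 lower) depended on the spread estimate and on single arrays. Over 67 named genes and all alternatives, 0 called values reversed, 185 lost the call and 45 gained one. The alternatives reuse the arrays that chose the called genes, so the signs of these could hardly change. Among uncalled genes, 7 values changed sign by more than the spread. The other 1502 stayed on their side of the threshold, some with a smaller change of sign. FTL, for one, was at -0.07 in the main fit and at 0.08 without the level block. In limma, 0 genes (0 higher, 0 lower) were called without the level block, with the 5 arrays only, with the 4 middle-level arrays only, with arrays centred on their median and with quantile normalization, both without the block; unadjusted p was under 0.05 for 47, 1106, 1106, 288 and 355 genes. The middle level only gave 7 (5 higher, 2 lower), 5 of them among the 16. With the block, quantile normalization gave 24 (17 and 7). The level as a random block gave 56 (34 and 22), leaving out the dimmest 25% of genes 59 (34 and 25), trend and robust moderation 109 (49 and 60), an adjusted p under 0.01 gave 9 (6 and 3) and testing all clusters gave 12 (9 and 3). Although same-numbered arrays were not taken as pairs in the main fit, a replicate block was fitted as well. With the level it gave 6 calls (6 higher, 0 lower), 3 of them among the 16. On the 5 arrays only it gave 14 (13 and 1), 5 of them among the 16. Leaving out 1 array at a time gave 0 to 26 calls, 0 to 18 higher and 0 to 11 lower; where 1 OICR623 array was left, it was assumed to vary like the other groups. The cause was not tested. The values carry no detection calls, so signal over background could not be judged.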
